A study of Mus musculus with 20 samples.

Results

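The genotype dependence of the estradiol effect was measured for 21998 transcripts in mouse liver as a difference between 2 effects. The first effect was estradiol (E2) against placebo in mice with estrogen receptor alpha (ERa+/+, wild type), and the second was E2 against placebo in mice labelled as homozygous for its loss (ERa-/-, null). All 20 of the 20 livers of the study entered, 5 in each of the 4 groups, and a gene entered once 4 of the 5 arrays in any group read its probe well above background. At an adjusted p under 0.05 the effects differed in 36 of the 21998 genes, which is 0.164%.

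Every animal in all 4 groups had been ovariectomized at 4 weeks of age, so that ovarian estrogen was removed in the controls too. At 9 weeks each received 1 gavage, either of E2 at 1 mg/kg or of the vehicle alone (castor oil with 5% ethanol, called placebo), and was killed under anaesthesia 4 hours later. The labels state that wild types and nulls came from the same parents and that mice were housed 5 to a cage. They do not say which part of Esr1, the gene of the receptor, was deleted, and they name no Cre or tissue-limited deletion. The sources used here do not give the strain.

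Estrogen receptor alpha is a nuclear receptor that binds E2 and then acts as a transcription factor, either on estrogen response elements (inverted repeats of the hexamer AGGTCA) or through other DNA-bound factors such as AP-1. It is the main estrogen receptor of hepatocytes, where it is known for effects on lipid, glucose and bile acid handling and on secreted plasma proteins. Estrogen receptor beta (Esr2) and the membrane receptor Gper1 also bind E2.

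Levels are log2 intensities relative to the 75th percentile of each array, so a level of 0 is that of the spot at the 75th percentile. A difference above 0 means that E2 raised a transcript more, or lowered it less, in wild types than in nulls. Errors written after ± are standard errors (SE) of the fit unless named SD. Positions are those of the probes on the mouse build mm9.

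The arrays differed in brightness. Between 51.6% and 70.05% of spots were well above background, and wild-type E2 animal 1 stood apart at the upper end, with a median signal of 56.7 against 25.5 to 39.9 on the other arrays. Hepatocyte markers (Alb, Ttr, Apoa1, Serpina1a, Tat, Cps1, Fgb, Trf, Cyp2e1 and Hnf4a) were well above background on all 20 arrays and lay at or above the 96.2nd percentile of all genes. Esr1 lay lower in every null than in every wild-type liver, with null minus wild-type placebo at -2.001 on the log2 scale, but its probe was still well above background on all 10 null arrays. Its own E2 effects differed by 0.23 ± 0.32 (adjusted p = 0.928). The same difference was -0.18 ± 0.16 for Esr2 (adjusted p = 0.874) and -0.29 ± 0.30 for Gper1 (adjusted p = 0.893), and 0 of these 3 receptor genes were called.

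The called differences lay almost wholly on 1 side. E2 acted more positively in wild types on 34 of the 36 genes (0.155% of the genes tested) and more negatively on 2 (0.00909%). Over all 21998 genes the difference was above 0 in 53.4%, with a median of 0.017, and 95% of genes lay between -0.74 and 0.86. At an unadjusted p under 0.05, 934 genes (4.25%) lay above 0 and 692 (3.15%) below, which is 7.39% of the genes together. The effects of E2 in the 2 genotypes shared no array, and across genes their correlation was 0.054, given as a description because genes are not independent replicates.

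**Figure D1:**
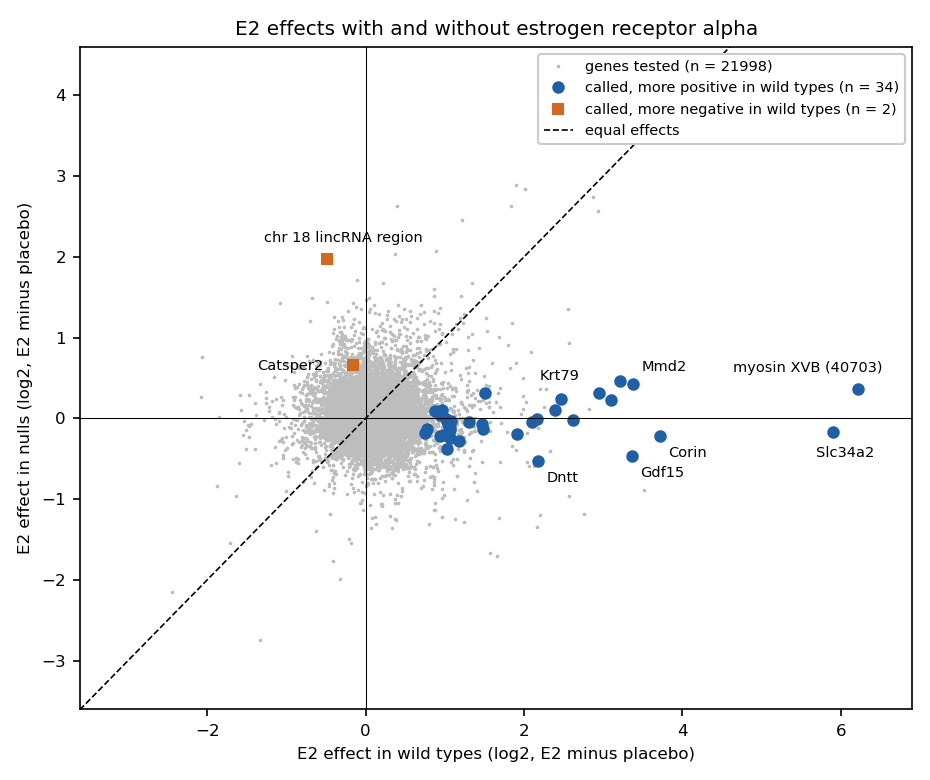
Each point is 1 of the 21998 genes, with the log2 effect of E2 in wild types on the horizontal axis and the log2 effect in nulls on the vertical axis. Circles and squares are the 34 and 2 genes called for the difference, and the dashed line marks equal effects. The 34 genes that were more positive in wild types spread to the right between 0.75 and 6.22 and stay between -0.53 and 0.46 on the vertical axis.

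The 34 genes were raised in wild types and not called in nulls. Their E2 effect in wild types ran from 0.75 to 6.22 with a median of 1.48, and all 34 passed the threshold there, where 66 genes (0.3%) were called higher in all. This count shares its arrays with the difference and adds no separate evidence. In nulls the effect of the same genes ran from -0.53 to 0.46 with a median of -0.05, with 11 genes above 0 and 23 below, and 0 of the 34 passed, beside 1 of 21998 genes (0.00455%) that passed in nulls at all. The 95% interval of the null effect contained 0 in 31 of the 34 and lay below 0 in Dsc2, Dntt and Fanca. The null interval also left out the wild-type effect in all 36 called genes, which the choice of genes by that difference largely fixes. In Slc34a2 and Krt4 no null array was well above background, and in ENSMUST00000040703 and Corin only 2 and 3 of the 10 were, so their null effects compare mostly background readings.

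Under placebo no difference between the genotypes was called at these genes. Null against wild-type placebo livers were called in 16 of 21998 genes (0.0727%), and 0 of the 36 were among them. Under E2, where 102 genes (0.464%) were called, all 36 were. Levels of wild-type E2 livers did not overlap those of wild-type placebo livers in 34 of the 36 genes, against 1.5% of all genes, and null E2 livers were apart from null placebo livers in 2 of the 36, against 0.809% of all genes. These counts describe genes chosen on the same arrays and are no separate evidence. The null and wild-type placebo levels are also terms of the difference. The choice of genes thus favours a higher null placebo level where the difference is above 0 and a lower one where it is below. A higher starting level in null placebo livers, past an unadjusted p of 0.05 but not called (6.36% of all genes lay so), was measured for Dntt (0.84), Aqp8 (0.66), Gpat3 (0.44), Psen2 (0.36), Map3k13 (0.36) and Pgpep1 (0.35), and a lower one for the chromosome 18 lincRNA region (-0.83).

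Membrane transporters, surface and secreted proteins are given first. Slc34a2, which encodes a sodium-dependent phosphate cotransporter, had a fitted difference of 6.07 ± 0.55 between the genotypes (adjusted p = 1.8e-05, limma), the largest of the 36. In wild-type livers the level was -5.37, -5.31, -7.08, -7.15 and -6.05 under placebo and 0.79, -0.021, -0.63, -0.90 and -0.70 under E2. In null livers it was -6.33, -5.92, -6.80, -5.98 and -6.67 under placebo and -7.05, -6.08, -6.81, -6.86 and -5.75 under E2. All 5 wild-type E2 livers were above every other liver, and 0 arrays of the other 3 groups were well above background at this probe (chr5:53462121-53462180). A fold is therefore a bound, computed after raising each dim array to the signal of its faintest probe still well above background, and the level under E2 was at least 24.2-fold higher in wild types than under placebo and at least 21.7-fold higher than in E2-treated nulls. The fitted value is no bound and rests on background readings in 3 groups, so no E2 effect in nulls can be read from this probe. It was 2.61 under normexp background correction with an offset of 50.

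Corin, a membrane protease that cleaves pro-atrial natriuretic peptide into its active form, differed by 3.93 ± 0.56 (adjusted p = 0.00243, chr5:72692288-72692347). The wild-type livers read -4.59, -5.10, -6.57, -5.97 and -4.83 under placebo and -1.23, -1.43, -1.80, -2.08 and -1.95 under E2. The null livers read -5.64, -3.48, -3.92, -4.66 and -5.25 under placebo and -4.41, -5.03, -4.36, -5.26 and -4.97 under E2. The highest of the other livers was a null placebo one, still below all wild-type E2 livers. The probe was well above background on 0 wild-type placebo arrays, 2 null placebo arrays and 1 null E2 array, and the rise in wild types was at least 8.43-fold.

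Gdf15 encodes a secreted cytokine that rises in stressed cells and acts on the brainstem receptor Gfral. It differed by 3.83 ± 0.56 (adjusted p = 0.00259, chr8:73153293-73153352). Levels of wild-type animals 1 to 5 were 3.15, 1.13, 1.47, 2.97 and 3.54 with placebo and 6.09, 5.68, 6.05, 5.74 and 5.51 with E2. Those of null animals were 3.04, 2.38, 2.51, 1.55 and 2.08 with placebo and 1.80, 2.41, 1.76, 2.13 and 1.14 with E2. The lowest wild-type E2 liver exceeded the highest liver of every other group. E2 raised it 10.3-fold in wild types, and the effect in nulls was -0.47 with an interval from -1.29 to 0.36.

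Mmd2, whose product spans the membrane and belongs with the PAQR (progestin and adipoQ receptor) proteins, differed by 2.95 ± 0.45 (adjusted p = 0.00447, chr5:143039928-143039987). With placebo, wild types stood at -0.27, -0.53, -0.91, -0.29 and 0.54, and with E2 at 3.20, 2.98, 3.07, 3.32 and 2.85. Nulls stood at 0.46, -0.039, -0.19, -0.73 and -0.0013 with placebo and at 0.35, 1.49, -0.79, 0.38 and 0.21 with E2. All 5 wild-type E2 livers again lay above the other 15. The rise in wild types was 10.4-fold, against a null effect of 0.43 (-0.25 to 1.099). Aqp8, a water channel gene of the hepatocyte canalicular side, differed by 1.47 ± 0.25 (adjusted p = 0.0107) with a mean level of 6.03 in wild-type E2 livers, 4.85 in wild-type placebo, 5.23 in null E2 and 5.51 in null placebo livers. Il17ra, the receptor subunit for interleukin 17, differed by 2.10 ± 0.34 (adjusted p = 0.00612) and rose 3.75-fold in wild types.

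**Figure D2:**
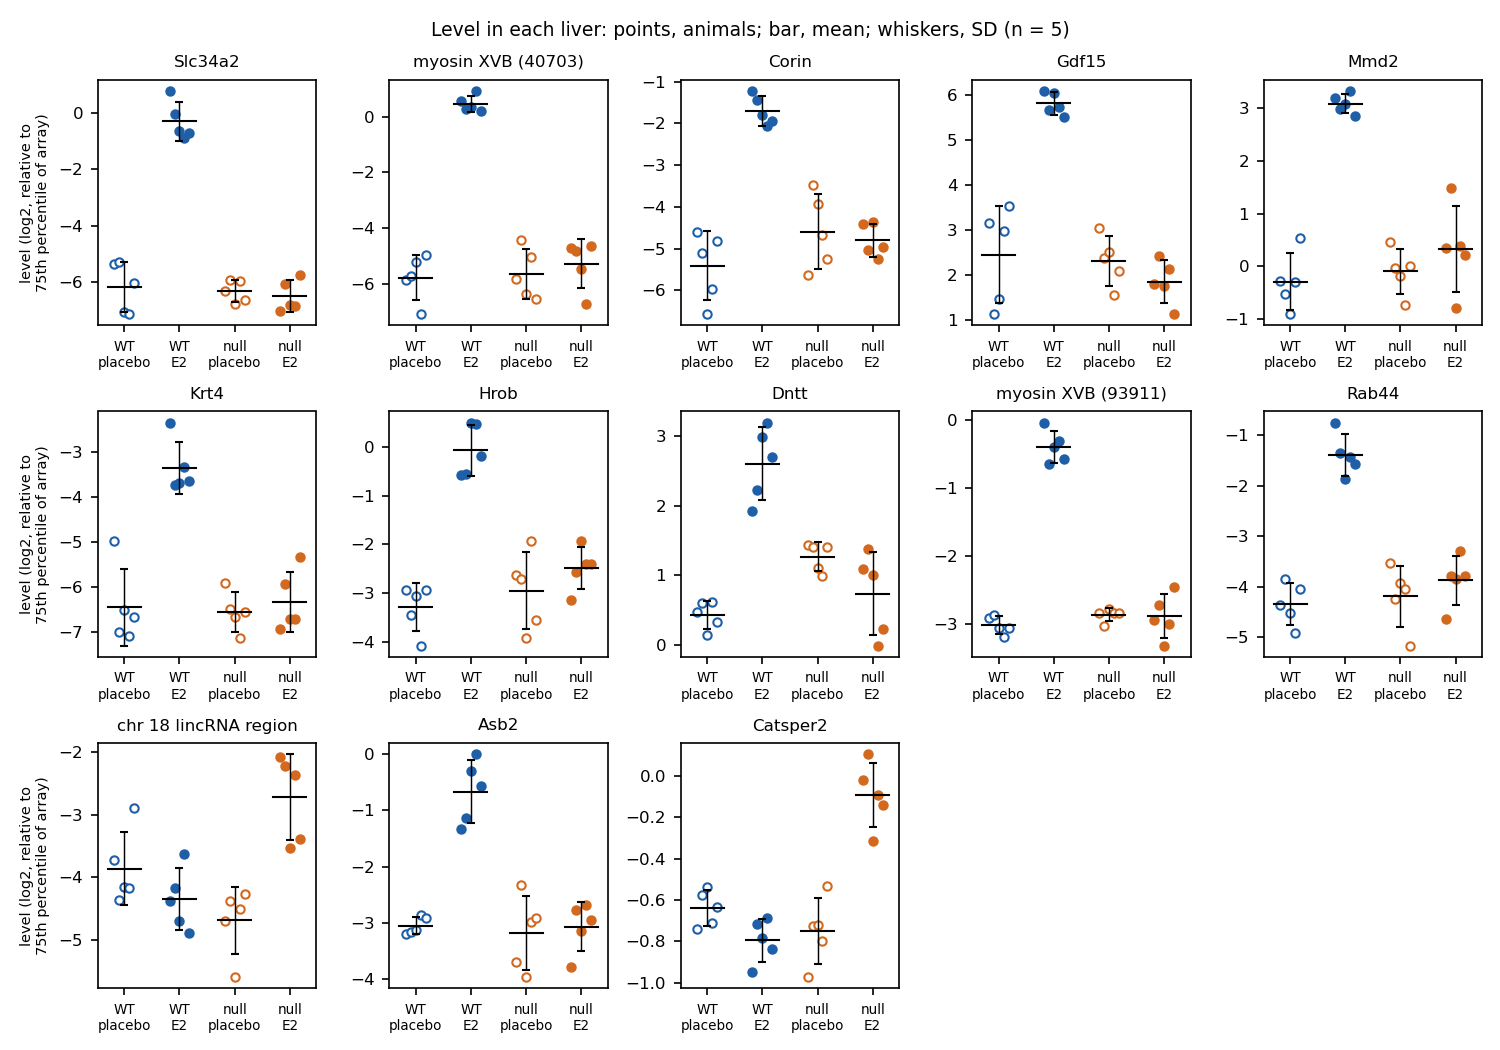
Points show the log2 level of the 12 called genes with the largest difference and of Catsper2 in each of the 20 livers, in 1 panel per gene, with the 4 groups on the horizontal axis and the mean and SD of 5 livers as a bar with whiskers. In the panels of genes with a difference above 0, wild-type E2 livers sit above wild-type placebo livers with no overlap, while the null groups lie side by side.

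Cytoskeletal and adhesion genes included the second largest difference. The array holds 2 myosin XVB transcripts, of an unconventional myosin gene, whose probes lie 4677 bases apart and count as 2 of the 36. ENSMUST00000040703 differed by 5.86 ± 0.64 (adjusted p = 0.000157, chr11:115748700-115748759). In wild-type livers the level was -5.86, -5.73, -5.20, -7.08 and -4.96 under placebo and 0.55, 0.27, 0.35, 0.92 and 0.19 under E2. In null livers it was -5.83, -4.43, -6.35, -5.02 and -6.55 under placebo and -4.71, -4.82, -5.46, -6.73 and -4.63 under E2. No liver of another group came near the wild-type E2 range. Placebo arrays of wild types were well above background in 0 of 5 cases, and the rise there was at least 41-fold. In each null group 1 of 5 arrays was well above background. ENSMUST00000093911 had the smallest adjusted p of all genes, at 9.29e-07, with a difference of 2.64 ± 0.19 (chr11:115753436-115753495). The wild-type livers read -2.91, -2.87, -3.06, -3.19 and -3.06 under placebo and -0.04, -0.65, -0.40, -0.32 and -0.58 under E2. The null livers read -2.85, -3.04, -2.78, -2.84 and -2.85 under placebo and -2.95, -2.72, -3.32, -3.00 and -2.46 under E2. The other 3 groups overlapped each other and not the wild-type E2 livers. The probe was well above background on every array, and the transcript rose 6.15-fold in wild types, against -0.021 in nulls (-0.31 to 0.27). At another kept probe of this transcript the difference was 0.36 (adjusted p = 0.762 across every kept probe), so its probes disagreed.

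Keratins are the intermediate filament proteins of epithelia, and 2 type II keratin genes were called. Krt4 had a fitted difference of 2.87 ± 0.55 (adjusted p = 0.0339), which rests on background readings in 3 groups and was 0.64 and not called under normexp. Levels of wild-type animals 1 to 5 were -4.97, -6.99, -6.49, -7.08 and -6.67 with placebo and -2.34, -3.72, -3.68, -3.33 and -3.65 with E2. Those of null animals were -5.90, -6.48, -6.66, -7.12 and -6.55 with placebo and -6.93, -5.93, -6.70, -6.70 and -5.34 with E2. Wild-type E2 livers were the highest 5 of the 20. Above background were 5 of 5 wild-type E2 arrays and 0 arrays elsewhere, and the bounds were at least 2.94-fold over wild-type placebo and at least 2.55-fold over null E2. Krt79, on the same chromosome 9028 bases away, differed by 2.23 ± 0.30 (adjusted p = 0.00128) and rose 5.53-fold in wild types. Of 13 keratins measured, 9 lay above 0 and 4 below, with a median of 0.19. Dsc2, a desmosomal cadherin, differed by 1.15 ± 0.13 (adjusted p = 0.000174). Baiap2l1, which bends membranes and binds actin, differed by 1.22 ± 0.20 (0.0103), and Smtnl2, a smoothelin-like gene, by 2.16 ± 0.43 (0.0464).

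Genes of chromosome segregation, recombination and repair included Mad2l1, a spindle checkpoint component, with 2.14 ± 0.22 (adjusted p = 5.91e-05) and a 4.29-fold rise in wild types. Hrob, a factor that loads the helicase of homologous recombination, differed by 2.75 ± 0.49 (adjusted p = 0.0169, chr11:102126433-102126492). With placebo, wild types stood at -2.93, -3.44, -3.05, -4.08 and -2.93, and with E2 at -0.56, -0.56, 0.50, 0.47 and -0.19. Nulls stood at -2.63, -2.71, -3.93, -1.92 and -3.54 with placebo and at -3.14, -2.57, -1.92, -2.40 and -2.39 with E2. Wild-type E2 livers did not overlap any other group, and the null groups overlapped each other. Its rise in wild types was 9.31-fold, and the null effect of 0.46 had an interval from -0.26 to 1.19. Fanca, of the Fanconi anemia core complex, differed by 1.41 ± 0.25 (adjusted p = 0.0169), a call that held in 7 of 15 alternatives and was lost at 0.59 with the authors' deposited log2 values (adjusted p = 0.248). Of 18 genes of homologous recombination and exonucleases, 7 lay above 0 and 11 below, with a median of -0.02. Trex2, an exonuclease gene, missed the call at 2.71 ± 0.64 (adjusted p = 0.166).

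Dntt encodes the terminal transferase that adds nucleotides at antigen receptor joints in lymphocyte precursors. It differed by 2.71 ± 0.36 (adjusted p = 0.00128, chr19:41133936-41133995). In wild-type livers the level was 0.47, 0.60, 0.14, 0.61 and 0.32 under placebo and 1.93, 2.22, 2.98, 3.20 and 2.70 under E2. In null livers it was 1.44, 1.41, 1.11, 0.99 and 1.40 under placebo and 1.095, 1.37, 1.00, -0.014 and 0.22 under E2. Every wild-type E2 liver was above every other liver, and the null effect was -0.53 (95% interval -1.06 to -0.00083). Lymphocyte markers were not called. Of 10 measured T and NK cell markers, 8 lay above 0 with a median of 0.14, and of 6 measured B cell markers 2 lay above 0 with a median of -0.016. Cd8a, Ncr1, Klrb1c, Il7r, Blk and Pax5 did not pass the filter. Their summed linear level ran from 25.1 to 36.9 in wild-type E2 livers for T and NK cells, against 28.0 to 43.7 under placebo. For B cells it ran from 1.74 to 2.43 against 1.48 to 2.18. In nulls the T and NK cell sum was 21.3 to 35.8 under E2 and 23.6 to 36.9 under placebo. The B cell sum in nulls was 1.89 to 4.15 under E2 and 1.74 to 2.06 under placebo. The part of such cells in the Dntt level was not tested.

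Signalling and protein turnover genes followed. Rab44, a large Rab GTPase, differed by 2.63 ± 0.41 (adjusted p = 0.00497, chr17:29285831-29285890). The wild-type livers read -4.37, -3.85, -4.52, -4.93 and -4.04 under placebo and -0.75, -1.35, -1.87, -1.43 and -1.56 under E2. The null livers read -3.54, -4.26, -3.93, -4.06 and -5.17 under placebo and -4.64, -3.79, -3.85, -3.29 and -3.80 under E2. Wild-type E2 livers were above all others. Its probe was well above background on 3 wild-type placebo, 4 null placebo and 3 null E2 arrays. Asb2, a substrate-binding subunit of a cullin ubiquitin ligase, differed by 2.28 ± 0.41 (adjusted p = 0.0197, chr12:104559752-104559811). Levels of wild-type animals 1 to 5 were -3.20, -3.16, -3.12, -2.85 and -2.92 with placebo and -1.32, -1.14, -0.29, -0.0015 and -0.57 with E2. Those of null animals were -3.69, -2.32, -3.96, -2.99 and -2.91 with placebo and -3.79, -2.78, -3.15, -2.68 and -2.94 with E2. Again the groups other than wild-type E2 overlapped, and wild-type E2 lay above them. It rose 5.23-fold in wild types, with a null effect of 0.11 (-0.51 to 0.72). Of 15 measured Asb genes 8 lay above 0, and the median was 0.055.

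The remaining genes above 0 differed by 0.79 to 1.61. Among enzymes, Gpat3, which acylates glycerol-3-phosphate in triglyceride synthesis, differed by 1.53 ± 0.22 (adjusted p = 0.00243), and Itpk1, an inositol phosphate kinase, by 1.34 ± 0.19 (0.00192). Tgm2, a transglutaminase that crosslinks proteins, differed by 1.31 ± 0.22 (0.0107), and Pgpep1, a pyroglutamyl peptidase, by 1.11 ± 0.15 (0.00128). Psen2, a catalytic subunit of gamma-secretase, differed by 1.03 ± 0.13 (0.000548), and Tsen54, of the tRNA splicing endonuclease, by 1.19 ± 0.22 (0.0197). The regulators were Creb3l4, a membrane-bound transcription factor (1.19 ± 0.23, adjusted p = 0.0359), Map3k13, a kinase upstream of JNK (0.93 ± 0.17, 0.0169), and Caskin2, a scaffold gene (1.11 ± 0.18, 0.00866). D430019H16Rik (1.61 ± 0.23), 2610318M16Rik (0.91 ± 0.13) and 9430038I01Rik (0.90 ± 0.14) are RIKEN transcripts, with adjusted p from 0.00259 to 0.00447. A lincRNA region of chromosome 1 differed by 1.195 ± 0.17 (adjusted p = 0.00243), and 2 overlapping lincRNA regions of chromosome 7 by 0.86 ± 0.14 and 0.79 ± 0.14 (0.0106 and 0.0169).

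**Figure D3:**
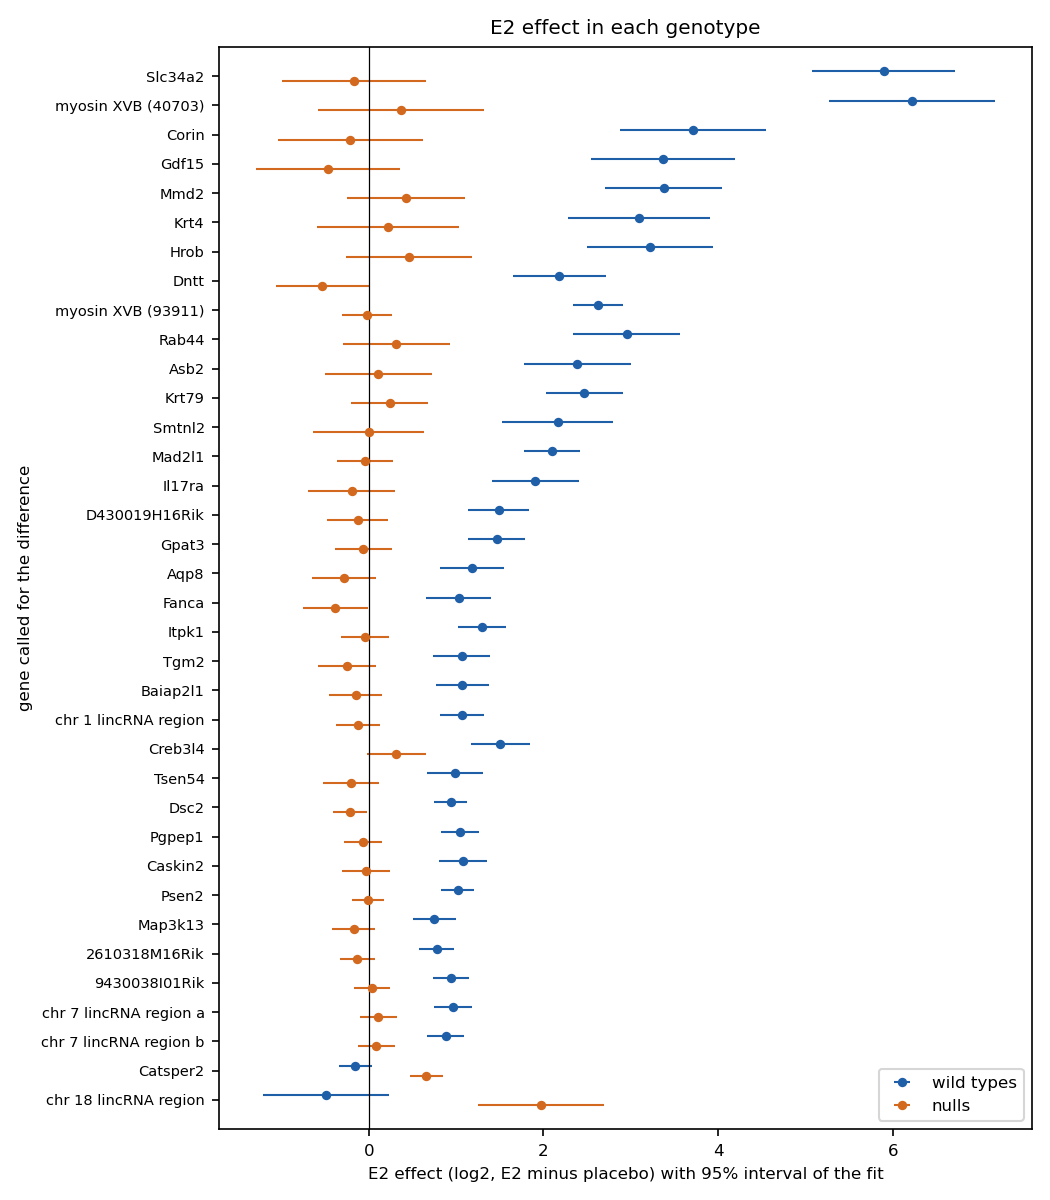
For each of the 36 called genes, the log2 effect of E2 is drawn in wild types and in nulls with its 95% interval, genes being ordered by the size of the difference. Null effects gather around 0 for the 34 genes above, though those of Slc34a2 and Krt4 rest on background readings, and the wild-type effect lies below the null effect for Catsper2 and the chromosome 18 lincRNA region, whose null effects are 0.66 and 1.97.

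In both genes with a negative difference, E2-treated nulls were higher than placebo nulls. Catsper2, a sperm calcium channel gene, differed by -0.81 ± 0.13 (adjusted p = 0.00497, chr2:121218394-121218453). With placebo, wild types stood at -0.74, -0.57, -0.54, -0.71 and -0.63, and with E2 at -0.95, -0.72, -0.78, -0.69 and -0.84. Nulls stood at -0.97, -0.73, -0.72, -0.80 and -0.53 with placebo and at -0.021, 0.10, -0.31, -0.094 and -0.14 with E2. The 5 null E2 livers lay above the other 15. Catsper2 was the only gene called for E2 in nulls, with an effect of 0.66 (adjusted p = 0.0158), against -0.15 in wild types. Its second kept probe gave -0.27 (adjusted p = 0.758 across every kept probe). The lincRNA region of chromosome 18 differed by -2.46 ± 0.49 (adjusted p = 0.0475). In wild-type livers the level was -3.72, -4.36, -4.16, -4.17 and -2.90 under placebo and -4.38, -4.17, -4.70, -3.62 and -4.89 under E2. In null livers it was -4.70, -4.37, -5.60, -4.50 and -4.26 under placebo and -2.08, -2.23, -3.52, -2.36 and -3.39 under E2. Here null E2 livers overlapped wild-type placebo livers. Null against wild-type placebo livers stood at -0.83 here (not called). The null effect was 1.97 (adjusted p = 0.202), and the probe was well above background on 5 wild-type placebo, 1 wild-type E2, 1 null placebo and 5 null E2 arrays. Levels of E2-treated and placebo nulls did not overlap at either gene.

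Around the threshold the called genes Creb3l4, Smtnl2 and the chromosome 18 lincRNA region were last inside. Just outside were Dop1b (0.85, adjusted p = 0.0555), Stat5a (1.04, 0.0592), a lincRNA region of chromosome 8 (1.498, 0.0631), one of chromosome 1 (-1.04, 0.0658), Kif16b (0.74, 0.076) and Upp2 (1.39, 0.08). Of the 66 genes that E2 raised in wild types, 32 were not called for the difference. All 32 differences lay above 0, between 0.37 and 2.71, 31 of them with an unadjusted p under 0.05, and the null effects ran from -0.42 to 0.38 with a median of 0.0021. The choice of these genes by their wild-type rise, a term of the difference, largely fixes that sign. The 4 genes (0.0182%) that E2 lowered in wild types had differences from -1.24 to -0.60 and were not called. A missed call does not show that E2 acted alike in both genotypes.

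Called genes lay close together at several loci. Another called gene lay within 100 kb of 13 of the 36, which sat on 15 chromosomes. The same share over all genes was not computed, so this count is a description and shows no excess of closeness. It includes both transcripts of myosin XVB and 3 entries of the chromosome 7 locus. On chromosome 11, Caskin2 and Tsen54 were 23598 bases apart and the myosin XVB probes up to 92702 bases from Caskin2. Gdf15 and Pgpep1 were 20654 bases apart on chromosome 8, and Psen2 lay 23795 bases from the chromosome 1 lincRNA region. The probes of Psen2 and of that region lie on the same strand, and whether they read the same transcript was not tested. Probes of 9430038I01Rik and of 1 chromosome 7 lincRNA region covered the same bases (chr7:144567255-144567314) and the second region's probe began 61 bases on, so these 3 calls are 1 measured locus. Within 100 kb of the 36 genes lay 97 measured genes that were not called. Of these, 16 had an unadjusted p under 0.05 above 0 and 3 below, beside 4.25% and 3.15% of all genes. Neighbours at the same locus are not independent of each other, and the excess was not tested.

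Neighbours past that unadjusted threshold included genes next to a called one. Cpne5, a copine gene 8984 bases from Rab44, differed by 1.15 ± 0.25 (adjusted p = 0.0879), and Zfp276, 1116 bases from Fanca, by 0.88 ± 0.19 (adjusted p = 0.104). Spata2l near Fanca differed by 1.21 (0.17), and Cdkn1a, the cell cycle inhibitor p21 near Rab44, by 3.40 ± 1.16 (0.573). Near Gdf15, Isyna1, the inositol-3-phosphate synthase gene, differed by 1.04 and Jund, an AP-1 subunit, by 0.81. Coq8a near Psen2 differed by 0.62, Atp10d 2595 bases from Corin by 0.76, and Krt8 near Krt4 by 0.43. Slc4a1 and Ubtf near Hrob differed by 0.74 and 0.60, Vps9d1 and Dpep1 near Fanca by 0.41 and 0.52, and 4930458D05Rik near Gpat3 by 0.93. Cfap20dc near 2610318M16Rik differed by 1.34 and ENSMUST00000116172 near Gdf15 by 0.70. The 3 below 0 were Fam107a near 2610318M16Rik at -1.56 (adjusted p = 0.671), Tmem41a, 2477 bases from Map3k13, at -0.71 (0.44) and Dennd4b near Creb3l4 at -0.39 (0.672). Fam107a turned above 0 with the mean of its kept probes and in animals numbered 750 or above.

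Other kept probes gave a second reading of several called genes. The differences were 2.14 for Map3k13 (adjusted p = 0.0017 across every kept probe), 1.35 for Tgm2 (0.00399), 1.21 for Tsen54 (0.0136) and 1.62 for Aqp8 (0.0312). For Mad2l1 the other probes gave 1.33 (0.143) and 0.99 (0.515), above 0 and not called. The 4 further probes of the chromosome 1 lincRNA region gave 0.96 to 1.33. For 9430038I01Rik they gave 1.16 (0.0199) and 0.047 (0.989), so its probes disagreed. Those of the first chromosome 7 lincRNA region disagreed too, at 1.03 (0.0254), 0.86 (0.0118), -0.023 (0.992) and -0.12 (0.96), while the second region had 1 other probe, at 0.93 (0.00251).

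Promoter windows from RefSeq on build GRCm38.p6, from 250 bases before to 50 bases after a start, were found for 22 of the 36 called genes, in 27 windows. The palindromic estrogen response element (inverted repeats of GGTCA with a spacer of any 3 bases) was in 0 of the 22 genes, against 0.0418% of 11950 measured genes and 0.07% of all 32851 windows. The hexamer AGGTCA, searched on both strands and able to overlap the palindrome, was in 2 of the 22 (9.09%), against 16.1% of measured genes and 16.3% of windows. The AP-1 motif TGACTCA was in 1 of the 22 (4.55%), 2610318M16Rik, against 4.9% of measured genes. The windows of the 2 called genes with this hexamer are shown because the receptor is known to bind that motif, with each match in capitals, 155 and 115 bases before the start in Mad2l1 (chr6:66534971-66535270, plus strand) and 55 bases before it in Gdf15 (chr8:70632407-70632706, minus strand).
Mad2l1: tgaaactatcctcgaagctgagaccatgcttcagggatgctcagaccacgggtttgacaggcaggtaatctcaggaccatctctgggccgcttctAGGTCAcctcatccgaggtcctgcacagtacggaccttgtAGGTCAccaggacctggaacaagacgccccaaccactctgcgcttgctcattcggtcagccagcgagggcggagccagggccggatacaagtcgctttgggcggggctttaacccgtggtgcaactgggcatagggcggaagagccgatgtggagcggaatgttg
Gdf15: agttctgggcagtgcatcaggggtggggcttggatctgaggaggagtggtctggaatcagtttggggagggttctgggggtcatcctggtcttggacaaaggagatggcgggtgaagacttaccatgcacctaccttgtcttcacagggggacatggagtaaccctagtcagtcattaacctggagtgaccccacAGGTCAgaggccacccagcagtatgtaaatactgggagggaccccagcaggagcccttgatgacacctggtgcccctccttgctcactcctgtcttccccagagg
A match is a description of these letters and not a measured binding site.

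Lists of liver pathways held no called member outside the genes already named. Scaling by the array median in place of the 75th percentile shifted the median of all genes by -0.118 and list medians alike, so the list medians between 0 and that size, here and for the Asb genes above, turned below 0 under it. Glucocorticoid targets and amino acid catabolism lay above 0 in 23 of 24 measured genes, with a median of 0.33 beside 0.017 over all genes. In wild types their median E2 effect was 0.19 and in nulls -0.15, and 0 were called. Examples were Sds, serine dehydratase (1.12 ± 0.28, adjusted p = 0.234), Sgk1, a kinase induced by glucocorticoids (1.03 ± 0.28, 0.345), and Tat, tyrosine aminotransferase (1.38 ± 0.47, 0.573). In the 13 livers of animals numbered 750 or above in the labels, the median was 0.035 with 13 of 24 above 0, so its size moved with which animals were taken. Of the 7 livers numbered below 750, 2 were wild-type E2, 3 null placebo and 2 null E2, and 0 were wild-type placebo.

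Cholesterol synthesis and its control lay above 0 in 22 of 27 genes with a median of 0.23, and 0 were called. Insig2, which holds back the activation of cholesterol synthesis genes, differed by 1.67 ± 0.37 (adjusted p = 0.109), and Hmgcs1, a synthase of the pathway, by 0.81 (0.685). The median of the list was -0.056 in animals numbered 750 or above. Fatty acid and triglyceride synthesis lay above 0 in 18 of 27 (median 0.068), with Scd2, a desaturase, at 0.86 (adjusted p = 0.455). Gpat3, called at 1.53, was not in this list. Glucose metabolism lay above 0 in 19 of 26 (median 0.19, but 0.017 with 13 of 26 above 0 in animals numbered 750 or above), with Igfbp1, an insulin-lowered secreted protein, at 1.65 (0.649). Fatty acid oxidation had a median of 0.014 and Ehhadh at 0.97 (0.513), and bile acid synthesis and transport a median of 0.042, with Nr0b2 (SHP) at 1.13 (0.675).

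Immediate early genes lay above 0 in 18 of 24 (median 0.24), beside 53.4% of all genes. Of the 24, 5 lay above 0 at an unadjusted p under 0.05, beside 4.25% of all genes, and 0 were called. Jun differed by 0.97 (adjusted p = 0.547) and Klf6 by 0.84 (0.614), both early transcription factors. Genes of the integrated stress response lay above 0 in 13 of 18 (median 0.20, but 0.015 with 10 of 18 above 0 in animals numbered 750 or above). Gdf15 was the 1 called, and Ddit4, an inhibitor of mTORC1, stood at 2.92 ± 0.72 (adjusted p = 0.222) and Atf3 at 1.42 (0.651). Cell cycle genes lay below 0 in 16 of 22 (median -0.16), and 0 were called. Mcm4, a replication helicase subunit, stood at -0.57 (adjusted p = 0.513) and Aspm, a spindle gene, at -1.24 (0.571). The highest member was Cdkn1a, at 3.40 ± 1.16 (0.573). Mad2l1, called at 2.14, was not in this list. Endoplasmic reticulum folding and stress genes lay below 0 in 18 of 24, with a median of -0.055.

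Growth hormone signalling was divided, with 11 of 20 above 0 and a median of 0.033. Stat5a, which carries the growth hormone signal to the nucleus, differed by 1.04 ± 0.21 (adjusted p = 0.0592), Lifr by 1.45 (0.47) and Stat5b by 0.42 (0.513). Male-biased liver genes lay above 0 in 16 of 23 (median 0.31) and female-biased genes in 12 of 36 (median -0.10), with 0 called in either. The median E2 effect of male-biased genes was -0.21 in wild types and -0.36 in nulls, so both medians fell. For female-biased genes these medians were 0.013 and 0.13. Hepatocyte transcription factors lay below 0 in 16 of 21 (median -0.10), and Cebpa differed by -0.61 ± 0.17 (adjusted p = 0.353). Known estrogen targets of other tissues lay above 0 in 15 of 23 (median 0.052), and 0 were called. Among the families of called genes, the median was 0.15 over 9 genes of phosphate transport, 0.070 over 9 of the natriuretic peptide system and -0.023 over 9 PAQR receptors, with 1 member called in each.

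**Figure D4:**
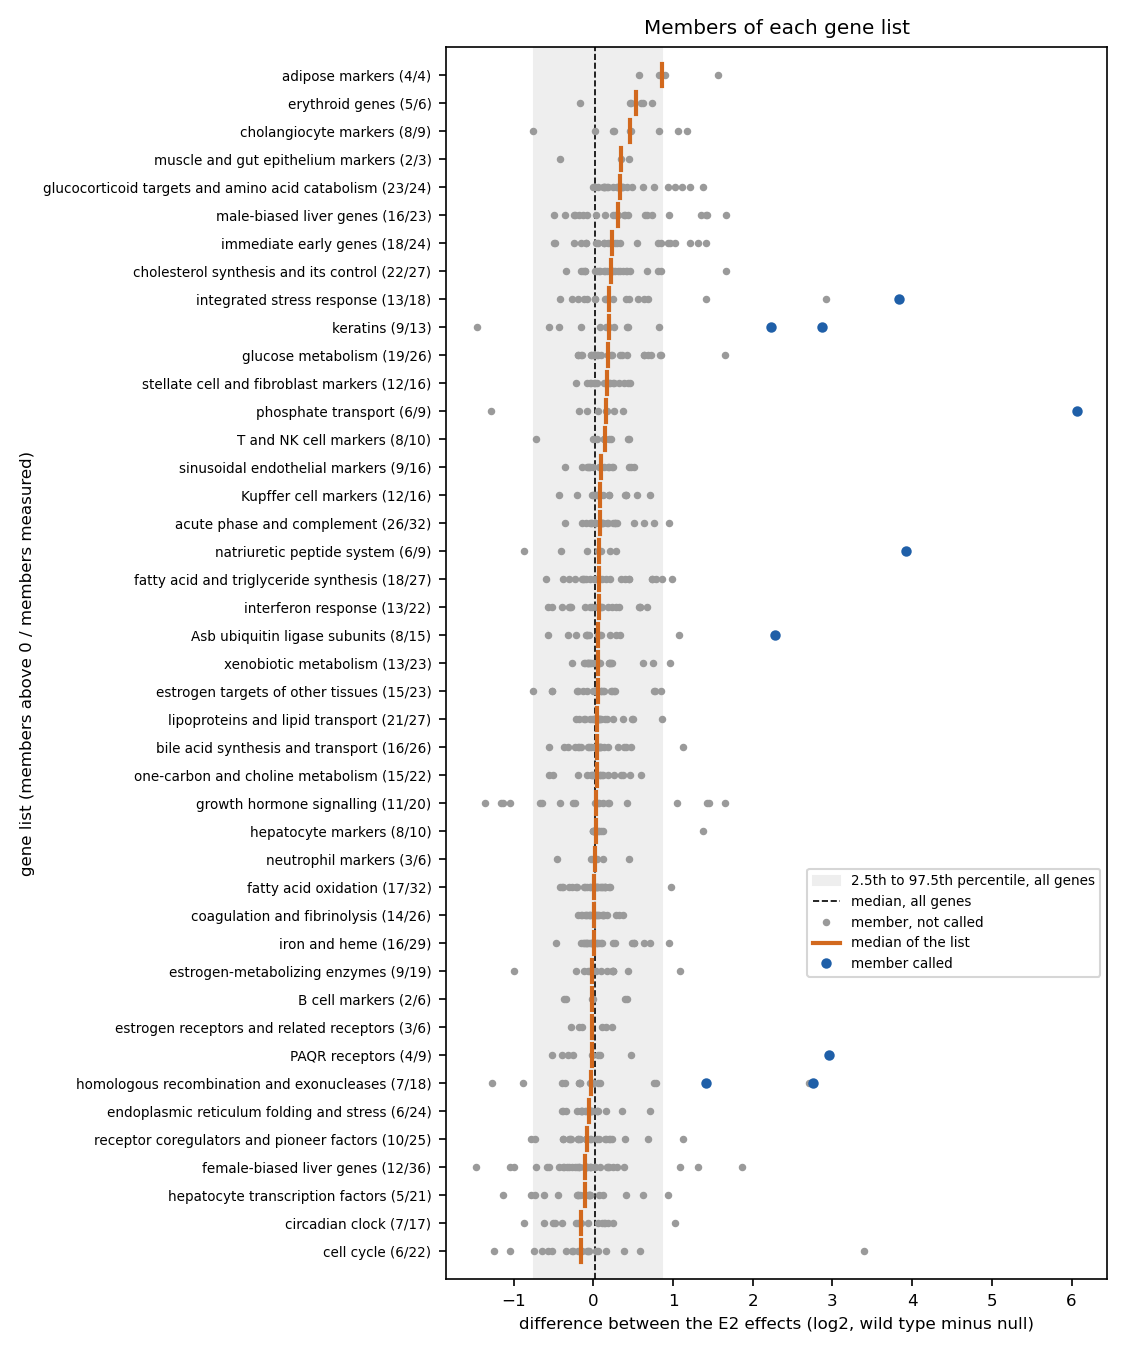
Each row is a gene list and each point a measured member, placed by its log2 difference between the E2 effects, with orange bars for the medians, a dashed line for the median of all genes at 0.017, a grey band for the central 95% of all genes and counts of members above 0 beside each name. Blue points of called members stand far to the right in the rows of phosphate transport, natriuretic peptides, stress response, keratins, recombination, PAQR and Asb genes, while most medians lie near the line.

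Markers of other cell types that a piece of liver can hold were read beside these results. The median was 0.089 for Kupffer cell markers (12 of 16 above 0) and 0.097 for sinusoidal endothelial markers (9 of 16). It was 0.17 for stellate cell and fibroblast markers (12 of 16), 0.023 for neutrophil markers (3 of 6) and 0.35 for muscle and gut epithelium markers (2 of 3). Each of these medians turned below 0 under some other setting. Erythroid genes lay above 0 in 5 of 6 measured members (median 0.53), with Alas2 at 0.63 (adjusted p = 0.341) and Slc4a1 at 0.74 (0.614). Their summed linear level ran from 595 to 930 in wild-type E2 livers, 436 to 613 in wild-type placebo, 589 to 797 in null placebo and 572 to 762 in null E2 livers. Adipose markers lay above 0 in 4 of 4 measured (median 0.86), with Retn at 0.90 (0.609), Cfd at 1.57 (0.679) and Fabp4 at 0.58 (0.691), while Adipoq, Lep and Plin1 did not pass the filter. Cholangiocyte markers, which matter beside the keratins, lay above 0 in 8 of 9 (median 0.47), with Cldn4 at 1.18 and Krt7 at 0.82 above 0 and Cftr at -0.75 below 0 past an unadjusted p of 0.05, and summed to 3.82 to 9.89 in wild-type E2 livers against 3.80 to 7.24 in wild-type placebo. The summed level of null livers was 4.59 to 8.27 under placebo and 3.75 to 7.04 under E2. The median E2 effect of the cholangiocyte markers was 0.026 in wild types and -0.32 in nulls, so their median difference came mostly from the nulls. None of these markers was called, their part in the called genes was not tested, and in whole liver fewer cells of a type and less RNA per cell cannot be told apart.

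The 36 calls differed in how far they withstood other settings. With each of the 20 arrays left out in turn, 31 of the 36 were called every time, and the exceptions were Tsen54 (17 of 20, lost without null placebo animal 2, null E2 animal 1 or null E2 animal 4), Creb3l4 (8), Krt4 (7), the chromosome 18 lincRNA region (4) and Smtnl2 (3). Both myosin XVB transcripts, Slc34a2, Mad2l1, Dntt and Krt79 were called under all 15 alternatives too. The sign was kept in all 72 values of the 36 genes within the 2 slides that held all 4 groups. These slides hold part of the arrays on which the genes were chosen, so the choice largely fixes these signs. The normexp background correction added an offset of 50 to every spot, which by arithmetic compresses log2 differences of dim spots. Median processed signals of the arrays were 25.5 to 56.7. With normexp the difference shrank to 2.61 for Slc34a2, 3.02 for ENSMUST00000040703, 1.36 for Corin, 1.21 for Rab44 and 0.64 for Krt4 (adjusted p = 0.193). The size for dim transcripts thus depended on that step and its offset together, which were not separated. The calls of Fanca (0.54, adjusted p = 0.0641), Creb3l4 (0.57, 0.091) and the chromosome 18 lincRNA region (-0.68, 0.328) also ended under normexp with this offset. Of the 15 alternatives, Creb3l4 was called in 4, Fanca and the chromosome 18 lincRNA region in 7 and the second chromosome 7 lincRNA region in 9.

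**Figure D5:**
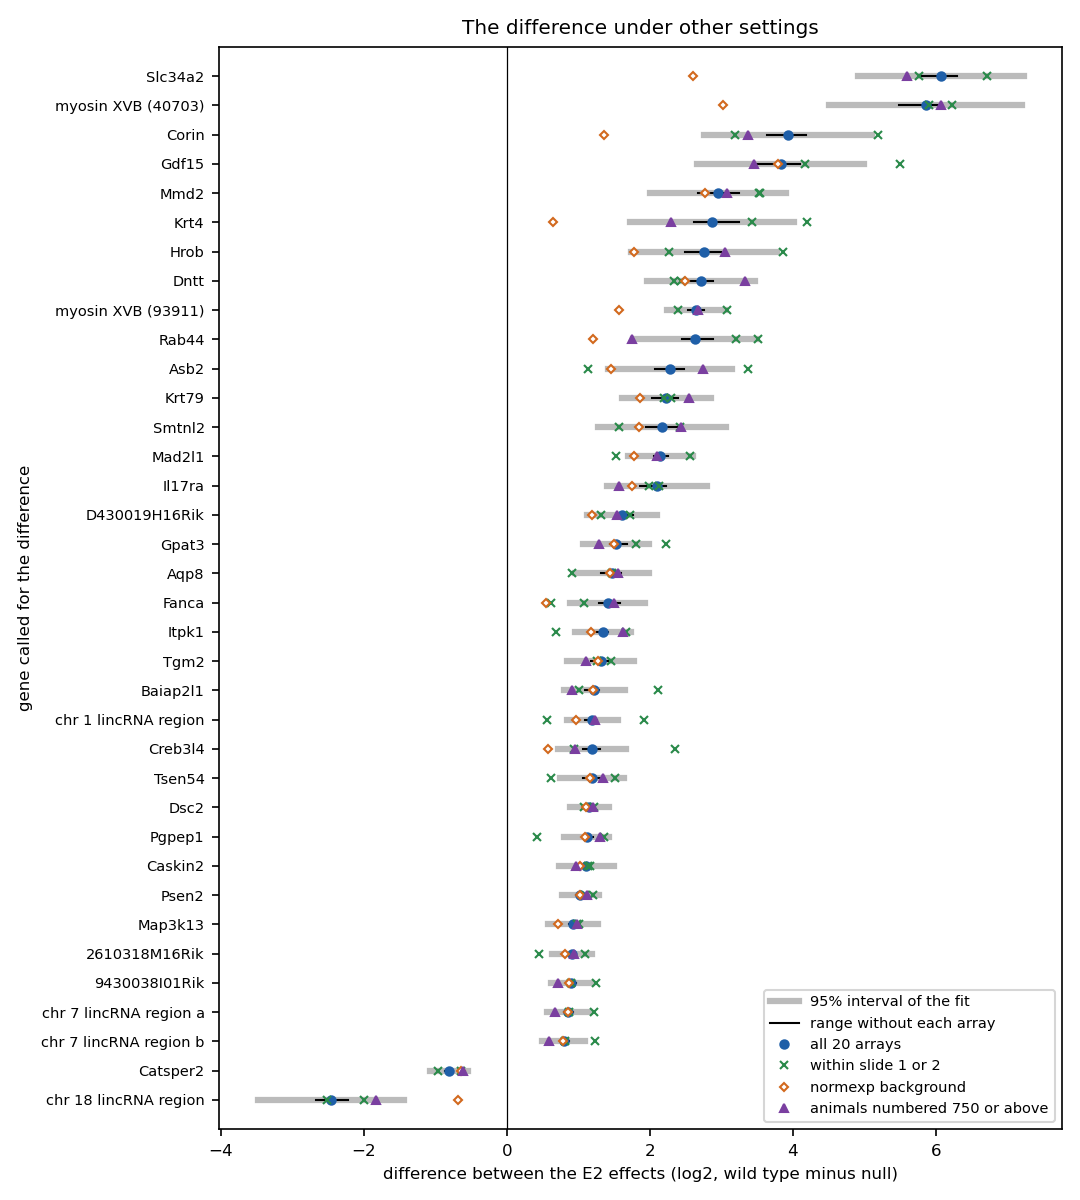
Each row is 1 of the 36 called genes and the horizontal axis is the log2 difference between the E2 effects. Circles use all 20 arrays, grey bars are 95% intervals, black lines span the values without each array in turn and crosses are values within slide 1 or 2. Diamonds use normexp background correction with an offset of 50, and triangles only animals numbered 750 or above. All marks of a gene lie on the same side of 0, and the diamonds of Slc34a2, Corin and Krt4 lie far to the left of their circles, at 2.61, 1.36 and 0.64.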

How the data were processed

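Livers of 20 animals, 5 in each of the 4 groups of genotype and treatment that the labels give, were each measured on 1 one-colour array. Per the submitters' processing notes, images were read with Agilent Feature Extraction 10.10.1.1, and the deposited scanner files hold an intensity per spot, of which the processed intensity is background-subtracted per the file headers. A further deposited file holds log2 values whose scale is unstated. Its columns followed the log2 median signal of their arrays (correlation 0.9987 or higher) with medians of 7.85, and it served as an alternative. The notes give no version for limma.

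From log2 processed intensity the array's own 75th percentile (59305 spots that are not controls) was subtracted. Of 55681 probes, 30961 were kept, being well above background on 4 of the 5 arrays in any group, and the brightest was used for each of the 6128 genes with several, which left 21998 genes. Names came from RefSeq, by accession for 27235 probes, by current symbol for 3581 and by synonym for 565, and 24300 kept the array's name. Exon and UTR annotation on mm9 was not analysed here.

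One limma fit (limma 3.58.1, R 4.3.3, data.table, version 1.17.8) of 4 group means over all 20 arrays gave 5 contrasts, with 16 residual degrees of freedom. Tests were 2-sided, adjusted by Benjamini-Hochberg across the genes, at a threshold of 0.05. The fit was tested on simulated data. An adjusted p for another probe of a gene was taken over all kept probes. Members and gene lists were chosen with earlier results of these data known, and lists are described by counts and medians without a test. Named genes were all those called, the values on every array being given for the 12 with the largest absolute difference and for those below 0, the 3 receptor genes, up to 3 members per list by smallest p, other kept probes of called genes, and neighbours within 100 kb with an unadjusted p under 0.05. Genes just outside the threshold are named as well, and 1 list member is not reported here.

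Slides were read as the scanner files number them. Nothing in the labels pairs the animals by replicate number. Deviations of same-numbered livers from their group means correlated between -0.16 and 0.25. Differently numbered livers were not compared, so this range cannot show whether the numbers pair animals. Alternatives changed background correction, scaling, source of values, probe filter, probe choice, slide, replicate and animal-number blocks, variance model and motif, and left out each array in turn. Normexp background correction was run with an offset of 50. Leaving out population outlier spots and combining normexp with quantile normalization were added after the data were seen. The number of animals limits the precision.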

Additional observations from a re-analysis of the deposited data

Results flagged for a closer look

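All 36 called genes were taken up here because the effect of E2 differed between wild types and nulls in the limma fit. The difference, on the log2 scale, was above 2 in Slc34a2 (6.07), ENSMUST00000040703 (5.86), Corin (3.93), Gdf15 (3.83), Mmd2 (2.95), Krt4 (2.87), Hrob (2.75), Dntt (2.71), ENSMUST00000093911 (2.64), Rab44 (2.63), Asb2 (2.28), Krt79 (2.23), Smtnl2 (2.16), Mad2l1 (2.14) and Il17ra (2.10). It lay between 1 and 2 in D430019H16Rik (1.61), Gpat3 (1.53), Aqp8 (1.47), Fanca (1.41), Itpk1 (1.34), Tgm2 (1.31), Baiap2l1 (1.22), the chromosome 1 lincRNA region (1.195), Creb3l4 (1.19), Tsen54 (1.19), Dsc2 (1.15), Pgpep1 (1.11), Caskin2 (1.11) and Psen2 (1.03). It was below 1 in Map3k13 (0.93), 2610318M16Rik (0.91), 9430038I01Rik (0.90), the first chromosome 7 lincRNA region (0.86) and the second chromosome 7 lincRNA region (0.79). Below 0 were Catsper2 (-0.81) and the chromosome 18 lincRNA region (-2.46). Their signs were the same in both slides that held all 4 groups, which choosing the genes on these same arrays largely fixes. No explanation was tested.

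A single liver lay far from the other 4 of its group in 29 of 360 pairs of a gene and a group, far meaning that its gap to the nearest liver, as a share of the group's range, passed the 95% critical value of Dixon's test, which chance passes in about 1 in 20 groups. Wild-type E2 animal 1, the brightest array, had 4 of them, being high for Krt4 (-2.345), Retn (-2.80) and Krt8 (5.79) and low for Mcm4 (0.39). Without that animal 34 genes were called, 32 of them among the 36. Wild-type E2 animal 2 was low for Stat5a (2.20) and high for Zfp276 (3.31), and animal 3 was low for Cftr (-2.15).

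Among wild-type placebo livers, animal 1 was high for Krt4 (-4.97) and low for Tsen54 (1.94), animal 2 high for Fanca (-2.83) and Zfp276 (2.67), and animal 5 low for Tgm2 (4.95) and high for the first chromosome 7 lincRNA region (2.15). Among null placebo livers, animal 1 was high for Il17ra (-0.043) and Alas2 (3.92), animal 2 low for ENSMUST00000093911 (-3.04) and Cftr (-2.502), animal 3 low for Pgpep1 (1.64) and animal 4 low for Slc4a1 (-2.35) and Fabp4 (1.525). In null E2 livers, animal 1 was low for Aqp8 (4.91) and high for Dop1b (4.26), and animal 2 high for Hmgcs1 (6.40) and low for Tmem41a (2.555). Animal 3 of that group was high for Tsen54 (2.498) and Jun (4.92), and animal 5 was high for Il17ra (-0.67) and low for Psen2 (5.65) and Upp2 (5.06). These values are log2 levels relative to the 75th percentile of the array.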

How the results depend on the processing

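The count of 36 genes (34 higher and 2 lower in wild types) lay between 30 and 41 under 13 of the 15 alternatives. With median scaling 18 were called, 16 of them higher and 17 shared with the 36, and the median of all genes shifted by -0.118. In the 13 animals numbered 750 or above, 10 were called, all among the 36, 10 higher and 0 lower. That setting has fewer animals, and the cause was not tested further. The number lower in wild types was 1 with quantile normalization, the deposited table, no filter, the mean of the kept probes or slide as a random block, 6 with the replicate block and 4 with an intensity trend and robust prior. With each array left out in turn, 31 to 40 genes were called, 30 to 38 higher and 1 to 4 lower, the 4 without null placebo animal 3.

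As the numbers pair nothing in the labels, the replicate block is a setting only. It gave 35 calls, 30 of them shared. Leaving out population outlier spots gave 36 and normexp with quantile normalization 41, both chosen after seeing the data. The Esr1 difference turned to -0.16 with the mean of the kept probes, and in animals numbered 750 or above the Esr2 difference turned to 0.035 and that of Gper1 to 0.20. Fam107a turned to 0.37 with the mean of the kept probes and to 0.093 in animals numbered 750 or above. In these genes the cause was not tested. The signs of all 36 called genes were kept in the 15 alternatives and 20 left-out fits. Of the 43 list medians, 15 kept their sign in all settings. Dim spots limit Slc34a2, ENSMUST00000040703, Corin and Krt4, whose levels without E2 are bounds.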

Other observations

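Large E2 effects in both genotypes were measured for 5 genes with an effect above 1.5 on the log2 scale in each, picked after their values were seen. Rec114, a meiotic recombination gene, rose by a fitted 2.93 in wild types and 2.57 in nulls, and the difference of 0.36 ± 1.51 (SE) was not called (adjusted p = 0.979). Sult2a1, a sulfotransferase of steroids and bile acids, had effects of 1.89 and 2.89 and a difference of -0.99 ± 2.42 (adjusted p = 0.961), and Sult2a3 had 2.87 and 2.74 with 0.13 ± 2.33 (0.997). For Sult2a4 and Sult2a6 the difference was -0.84 ± 2.64 and -0.79 ± 2.39. Neither effect was called in either genotype for these 5, and standard errors of 1.51 to 2.64 would not resolve most differences seen among the 36 called genes. The Sult2a genes are close paralogs, so a probe of one may read another.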
